A study of Mus musculus with 2 samples.

Results

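Klf4 peaks were examined at 10 genes of the extracellular matrix and basement membrane: Fn1, Col4a1, Col4a2, Sparc, Lamc1, Col1a1, Col3a1, Eln, Timp3 and Thbs1. Each gene was represented by a window of mm9 sequence fixed by its coordinates, and Col4a1 and Col4a2, which share a promoter region, were represented by 1 window, giving 9 windows of 50 to 290 kb. A peak belonged to a gene when its midpoint fell in the window. The windows held 6 of the 7313 peaks of the list, or 0.0821%, in 4 windows that stand for 5 genes. The windows of the other 5 genes held no peak. Membership of a peak was set by position alone, and peak scores were not used. The genes themselves were chosen with earlier results of these data known.

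The peaks came from chromatin immunoprecipitation with an anti-Klf4 antibody followed by sequencing (ChIP-seq), carried out on mesenteric arcades, the small vessels that branch towards the gut, of C57BL/6 mice kept on chow. There was 1 library of genotype eYFP+/+ Klf4WT/WT and 1 library of genotype eYFP+/+ Klf4delta/delta, in which the labels place the Klf4 deletion in smooth muscle cells. Both genotypes carry the eYFP allele. The sources used here do not give the Cre driver, the age of the mice or the number of animals per library. A single peak list covers the series and names no genotype, so the genotypes were not compared and no peak carries a replicate error. The stromal vascular fraction that was fixed held several cell types, smooth muscle cells and macrophages among them, so that no peak can be assigned to a cell type.

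Klf4 is a zinc-finger transcription factor that recognises GC-rich and CACCC-type DNA elements and is known in smooth muscle for its part in the switch away from the contractile state. The basement membrane is the thin matrix sheet on which endothelial cells rest and which encloses mural cells. It is built from networks of type IV collagen and of laminin, joined by linker proteins. The matrix around it consists of fibrillar collagens, elastic fibres and adhesive glycoproteins such as fibronectin, together with enzymes and inhibitors that govern its turnover.

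The 3 basement membrane genes examined all had a peak in their window, and the 3 fibrillar collagen and elastin genes had none. The 3 basement membrane genes Col4a1, Col4a2 and Lamc1 were covered by 2 windows with 3 peaks. Among the 3 genes for matrix glycoproteins, Fn1 and Sparc had peaks and Thbs1 had none. Col1a1, Col3a1 and Eln, and the inhibitor gene Timp3, had no peak in their windows. These counts rest on few genes and on windows of unequal width, since the 4 windows with peaks measured 60 to 290 kb and the 5 windows without measured 50 to 80 kb. Equal-width stretches of the genome, described below, held a peak in 37.5% and 25.5% of cases for the 2 basement membrane windows. The shares were 11.2%, 14.6% and 16.2% for Col1a1, Col3a1 and Eln, so an empty window was the common case there. These groups were not those of the plan, which placed Col4a1, Col4a2, Col1a1 and Col3a1 together as collagens. Grouped that way, the collagens were divided. Col4a1 and Col4a2, which share a window, had peaks, and Col1a1 and Col3a1 had none. No difference between the groups was tested.

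Window width was taken into account by cutting each chromosome, from its first to its last peak, into tiles as wide as the window. A tile as wide as the 290 kb window of Col4a1 and Col4a2 held at least 1 peak in 37.5% of cases. The share was 25.5% for the 150 kb window of Lamc1, 19.1% for the 100 kb window of Fn1 and 13.0% for the 60 kb window of Sparc. For the windows without a peak it was 16.2% at 80 kb (Eln and Timp3), 14.6% at 70 kb (Col3a1) and 11.2% at 50 kb (Col1a1 and Thbs1). Summed over the 9 windows these shares came to 1.65 windows, or to 1.78 with tiles of each gene's own chromosome, beside the 4 windows that held a peak. The genes were chosen with earlier results of these data known, so the 4 windows cannot be read as an excess. The tiles include sequence without genes, whereas each window was placed on a gene, so the shares do not give the rate at other genes. Because most tiles hold no peak, an empty window was the common case at each of these widths.

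**Figure D1:**
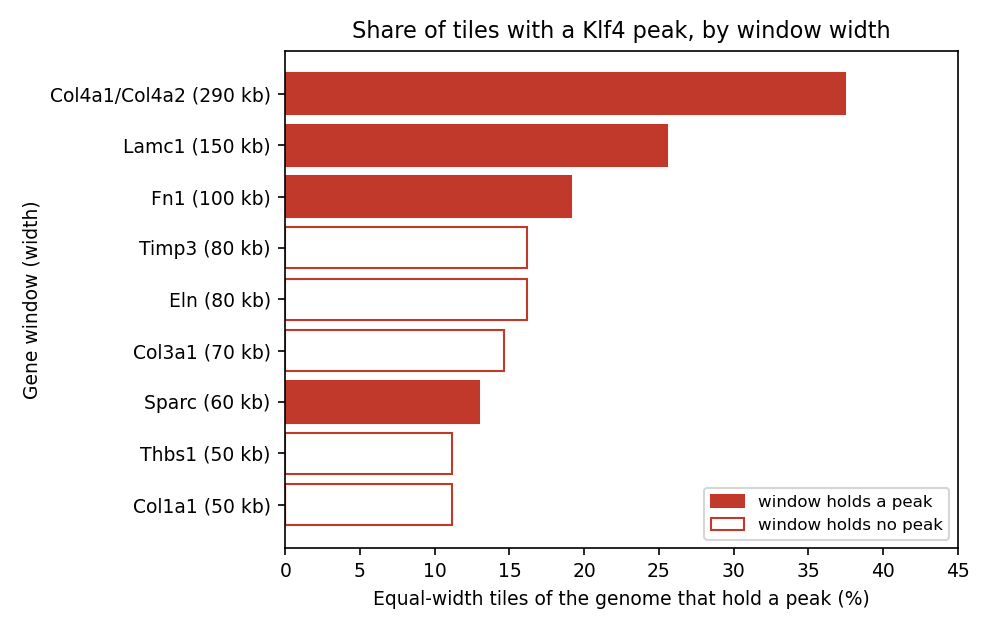
Share of genome tiles that hold at least 1 Klf4 peak (horizontal axis, %) for tiles as wide as each gene window (rows, ordered by width in kb), with filled bars for windows that hold a peak. The 3 widest windows hold peaks, and so does the 60 kb window of Sparc, where 13.0% of tiles do. On chromosome 11 alone, which is not drawn, 21.9% of tiles of that width do.

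Over all windows, 6 peaks in 0.93 Mb came to 6.45 peaks per Mb (exact Poisson 95% interval 2.37 to 14.0, for counting error only), against 2.86 per Mb over the whole list, from first to last peak of each chromosome. Counting overlooks that 4 of the 6 peaks formed close pairs. With peaks under 1 kb apart joined, each of the 4 windows held 1 region, or 4.30 regions per Mb of window, against 2.62 regions per Mb when the whole list was joined in the same way.

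**Figure D2:**
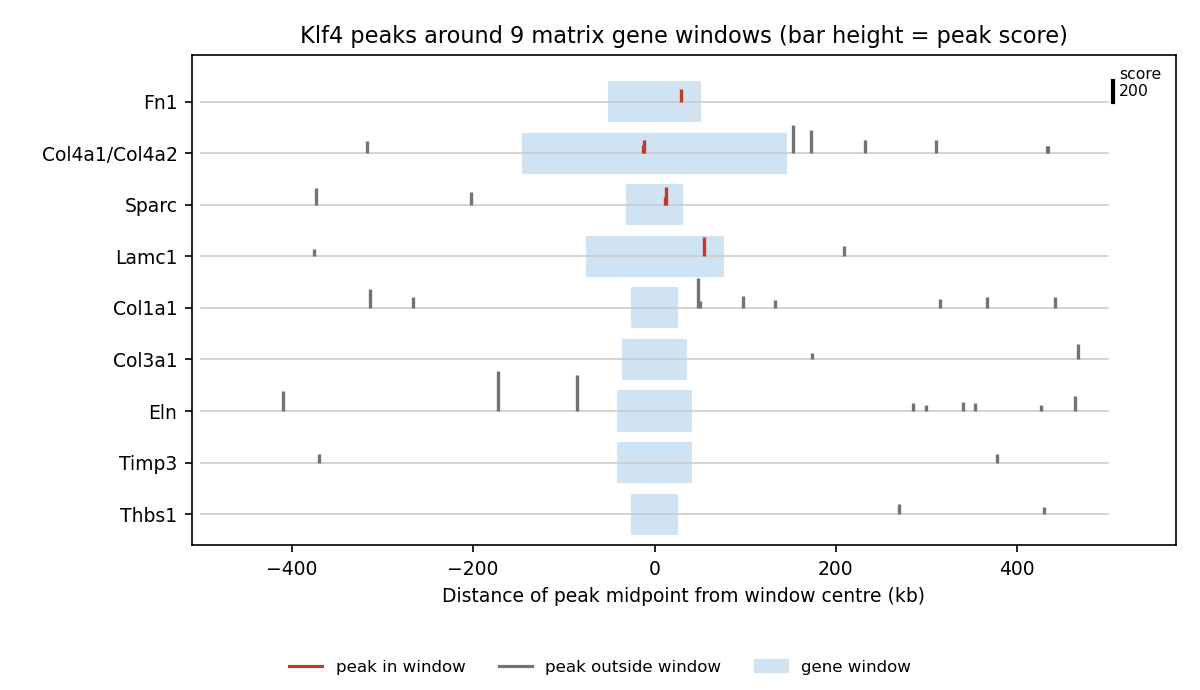
Positions of Klf4 peaks in the 1 Mb around the centre of each gene window, as distance from the window centre in kb (horizontal axis), with the window shaded and the bar height proportional to the peak score. Peaks in windows are seen at Fn1, Col4a1 and Col4a2, Sparc and Lamc1, while tall bars beside the windows of Eln, Col1a1 and Col4a1 and Col4a2 lie outside them.

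Lamc1, which encodes the laminin gamma-1 chain found in most laminin trimers, held the highest-scoring of the 6 peaks. The peak lay at chr1:155178686-155180103 (mm9), was 1418 bp wide and scored 183.02. The score is the authors' own and ranks peaks within this list only; 81.7% of all peaks scored lower, and the Lamc1 peak ranked 82 of 412 on chromosome 1. Its midpoint was 129.4 kb above the lower edge of the 150 kb window and 20.6 kb below the upper edge. The next peak on either side was 429.0 kb and 153.7 kb away.

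Col4a1 and Col4a2 encode the alpha-1 and alpha-2 chains that combine into the most widespread type IV collagen, and they are transcribed away from each other from a common promoter region. Their window held a pair of peaks 644 bp apart. The lower peak, at chr8:11311972-11312691 (mm9), was 720 bp wide and scored 83.57, above 26.4% of the list. The upper peak, at chr8:11313336-11314069, was 734 bp wide and scored 126.24, above 59.0% of the list. The peaks of the pair were nearly equal in width and both were narrower than the median peak of the list, 913 bp.

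The higher score of the Col4a1 and Col4a2 pair was 1.51 times the lower, close to the median of 1.53 over the 620 gaps under 1 kb between neighbouring peaks of the list (quartiles 1.21 and 2.03). Their gap was wide for such pairs, since 93.2% of these gaps were shorter and the median was 168 bp. From the start of the lower peak to the end of the upper one the pair spanned 2098 bp. The midpoints lay 12.7 and 11.3 kb below the centre of the window, and no further peak lay in the remaining sequence of the window. The next peak above the pair was 163.7 kb away, at chr8:11477720-11478668, which is 7.72 kb beyond the window's upper edge, and it scored 270.24. This peak outside the window scored higher than either peak inside it and than the other 4 peaks of the windows.

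Among the glycoprotein genes, Sparc, which encodes a collagen-binding matricellular protein also called osteonectin, held the other pair. The lower peak, at chr11:55231126-55231696 (mm9), was 571 bp wide and scored 79.46, the lowest score of the 6 and above 21.5% of the list. The upper peak, at chr11:55231961-55233406, was 1446 bp wide and scored 174.00, above 79.1% of the list. Only 264 bp separated them, and together they spanned 2281 bp.

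The Sparc pair was less even than the Col4a1 and Col4a2 pair. Its higher score was 2.19 times the lower, a ratio above that of 79.5% of close pairs, and its wider peak was 2.53 times the narrower, against 1.02 times at Col4a1 and Col4a2. Both Sparc peaks lay nearer to the upper edge of the window, 18.6 and 17.3 kb from it. The promoter table gives Sparc on the minus strand of GRCm38.p6, where its 5′ end faces higher coordinates. How far the mm9 peaks lie from that end was not determined. The next peak below the pair was 212.6 kb away and the next above 2098 kb away. Having a neighbour under 1 kb away was shared by 4 of the 6 peaks, in 2 pairs, and by 16.6% of the whole list; the peaks of a pair are not independent of each other.

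Fn1 encodes fibronectin, an adhesive glycoprotein bound by integrins and assembled into fibrils by the cells that contact it. Its window held 1 peak at chr1:71698850-71700186 (mm9), which was 1337 bp wide and scored 118.48, above 54.3% of the list. The peak was wide for its score: 82.9% of peaks were narrower, and by score per kb, 88.6, it stood above only 16.4% of the list. It lay 20.5 kb below the upper edge of the window, beside 20.6 kb for the Lamc1 peak.

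The Fn1 peak was the most isolated of the 6. The nearest peaks were 548.8 kb below and 630.2 kb above it, and 96.1% of peaks in the list had a nearer neighbour. No other peak lay within the 1 Mb centred on the Fn1 window. The corresponding share was 81.8% for the Lamc1 peak, 15.4% for both peaks at Col4a1 and Col4a2 and 11.6% for both at Sparc.

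As a group, the 6 peaks had scores from 79.46 to 183.02 with a median of 122.4, against 112.0 for the list, and 4 of them scored above the list's median. The 4 were the Fn1 and Lamc1 peaks and the upper peak of each pair. The Lamc1 peak and the upper Sparc peak, 2 of 6, reached the upper 25% of scores, which began at 161.17. By definition, 25% of the whole list reaches that score. Widths ranged from 571 to 1446 bp with a median of 1036 bp. The Fn1, Lamc1 and upper Sparc peaks were 1337 to 1446 bp wide and the remaining 3 were 571 to 734 bp wide. The median of the list, 913 bp, lay between these ranges. The order of the peaks depended on the measure. By score per kb the upper Col4a1 and Col4a2 peak was the highest of the 6, at 172.0 and above 76.4% of the list, whereas the Lamc1 peak moved from above 81.7% by score to above 50.01%, and the upper Sparc peak from above 79.1% to above 42.7%. The best rank by score among the 6 was 1335 of 7313, held by the Lamc1 peak.

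**Figure D3:**
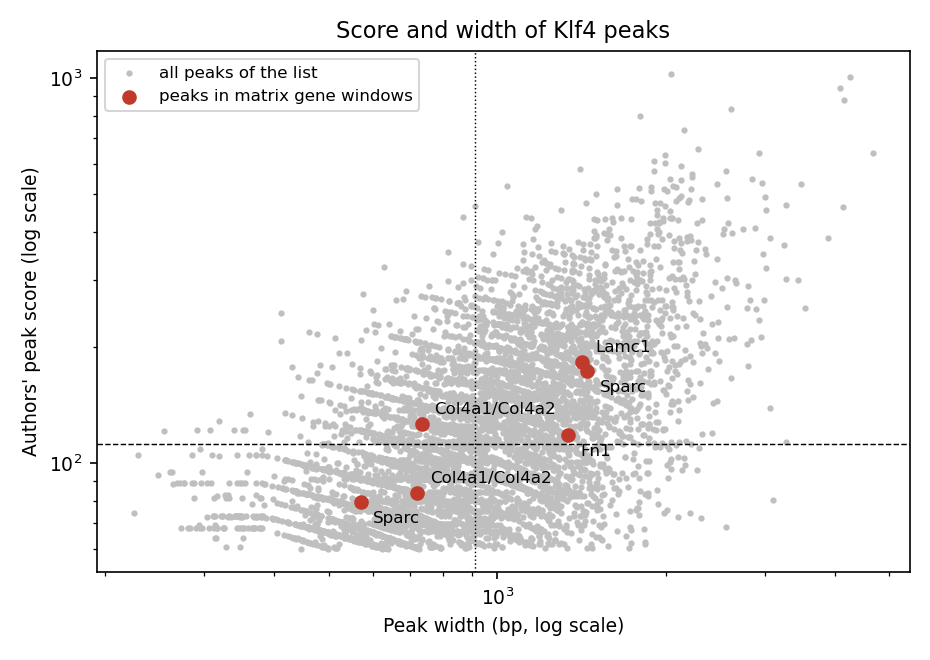
Peak score against peak width (both axes logarithmic, width in bp) for all 7313 peaks in grey and the 6 peaks of the matrix gene windows in red, with the list's median score (dashed) and median width (dotted). Of the red points, 4 lie above the median score, and the lower peaks of the Sparc and the Col4a1 and Col4a2 pairs lie below it.

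The interstitial matrix genes without a peak differed in how far the nearest peak was. Col1a1 encodes the alpha-1 chain of type I collagen, the main fibrillar collagen of vessel adventitia. The nearest peak to its window, chr11:94852511-94854453 (mm9), began 22.5 kb beyond the upper edge and scored 285.88, above 95.6% of the list. On the lower side the nearest peak ended 240.9 kb from the edge and scored 107.29. In the gene table, which is of build GRCm38.p6, the direct protein-coding neighbours of Col1a1 are Gm11544 and Sgca.

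Eln encodes tropoelastin, the monomer of elastic fibres. The peak nearest to its window, chr5:135114225-135115207 (mm9), ended 44.8 kb below the lower edge and scored 350.42, above 97.9% of the list. The nearest peak above the window was 244.9 kb away and scored 74.03. Limk1, a kinase of the actin cytoskeleton, and Tmem270 are the neighbours of Eln in GRCm38.p6. Peaks outside the windows were not assigned to any gene.

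Col3a1 encodes type III collagen, which accompanies type I collagen in distensible tissues, and lies beside Col5a2, another fibrillar collagen gene, and Gulp1 in GRCm38.p6. Its window lay in the longest of the 5 empty stretches, 1383 kb between peak midpoints, with a peak 1173 kb below the window scoring 71.87 and one 138.6 kb above it scoring 66.04. Only 13.9% and 6.48% of the list scored lower than these peaks. Stretches at least as long made up 49.3% of the span of the list.

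Thbs1 encodes thrombospondin-1, a matricellular glycoprotein that inhibits vessel growth and activates latent TGF-beta. Its window lay in a peak-free stretch of 1047 kb, with the nearest peaks 751.4 kb below (score 79.98) and 244.3 kb above (score 99.48). Timp3 encodes an inhibitor of metalloproteinases that is bound to the matrix, and the gene overlaps Syn3 in GRCm38.p6. Its window lay in a stretch of 748.0 kb, with the nearest peaks 329.5 kb below (score 83.73) and 337.1 kb above (score 79.05). The stretches without a peak around Eln and Col1a1 were shorter, 370.8 and 314.9 kb.

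The number of peaks around the empty windows varied. In the 1 Mb centred on the window, Col1a1 and Eln had 9 peaks each, all outside the window, as many as the 1 Mb around Col4a1 and Col4a2 held in all. Col3a1, Timp3 and Thbs1 had 2 each, equal to the median of 1 Mb tiles over the genome. Among the genes with a peak, the 1 Mb held 4 peaks at Sparc, 3 at Lamc1 and 1 at Fn1. The quartiles of these tiles were 0 and 4 peaks.

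**Figure D4:**
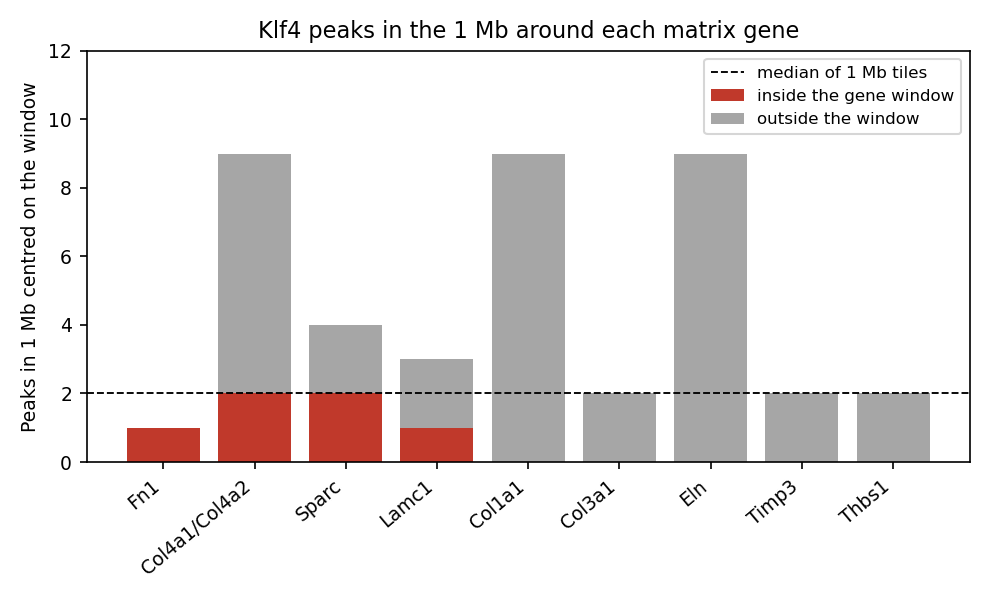
Number of Klf4 peaks in the 1 Mb centred on each gene window (vertical axis), split into peaks inside the window (red) and outside it (grey), with the median of 1 Mb tiles as a dashed line. Col1a1 and Eln have 9 peaks each outside and none inside their windows, whereas the Fn1 peak has no other peak beside it.

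Promoter sequences are shown for genes with and without peaks because the factor's known DNA elements can be looked for in them. The RefSeq promoter table of GRCm38.p6 held 5 of the 10 genes, Col4a1, Col4a2, Sparc, Col3a1 and Timp3. Fn1, Lamc1, Col1a1, Eln and Thbs1 were not among them. Each sequence runs from 250 bases before to 50 bases after the start of the gene. Their place relative to the mm9 peaks was not determined, since coordinates were not moved between builds. The motifs searched, on both strands, were GGGNGTGG, which is the fuller Klf4-type element and always contains CACCC on one strand when N is T or G, the CACCC core, and the GC box GGGCGG.

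The 250 bases before the start are given for Sparc, whose window held 2 peaks, and for Timp3 and Col3a1, whose windows held none, with matches to CACCC or GGGCGG of either strand in capitals. They are chr11:55420081-55420330 (minus strand), chr10:86300162-86300411 (plus strand) and chr1:45311288-45311537 (plus strand) of GRCm38.p6, in that order.
Sparc: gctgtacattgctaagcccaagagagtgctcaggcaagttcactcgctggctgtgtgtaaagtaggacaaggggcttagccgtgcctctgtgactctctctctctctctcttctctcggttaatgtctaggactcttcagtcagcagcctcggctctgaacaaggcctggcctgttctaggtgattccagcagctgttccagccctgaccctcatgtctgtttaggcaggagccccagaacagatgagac
Timp3: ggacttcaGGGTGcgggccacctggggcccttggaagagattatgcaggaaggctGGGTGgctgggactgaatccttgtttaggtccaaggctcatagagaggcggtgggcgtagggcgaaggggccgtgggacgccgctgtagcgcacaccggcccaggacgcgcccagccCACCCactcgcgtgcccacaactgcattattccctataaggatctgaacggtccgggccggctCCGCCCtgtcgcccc
Col3a1: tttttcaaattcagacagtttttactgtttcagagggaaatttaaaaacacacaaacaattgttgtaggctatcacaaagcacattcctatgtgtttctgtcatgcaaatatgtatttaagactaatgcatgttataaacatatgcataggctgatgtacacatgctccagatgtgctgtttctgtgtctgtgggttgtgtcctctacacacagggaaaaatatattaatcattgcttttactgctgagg
Timp3, without a peak in its window, had the most matches of the 3, and Sparc and Col3a1 had none in these 250 bases.

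For Col4a1 and Col4a2, stretches of 30 bases around the CACCC match of each gene and around the GC box nearest before the start of Col4a2 are given, with the match in capitals. They lie at chr8:11312910-11312939 (minus strand), chr8:11312710-11312739 (plus strand) and, for the GC box, chr8:11312745-11312774 (plus strand) of GRCm38.p6.
Col4a1 CACCC: cgcgggaggagctGGGTGcggagcgcagag
Col4a2 CACCC: tgctcaccgtcccGGGTGcggtgactctgc
Col4a2 GC box: gacctgagcgcgCCGCCCgaggagctcccc
The 2 promoter sequences overlap by 78 bases, in which 1 GGGCGG site is common to both.

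Over the full 300 bases, 4 of the 5 promoters held CACCC, against 57.5% of the 32851 promoters in the table. Timp3 held 3 matches, and Col4a1, Col4a2 and Sparc held 1 each. The GC box GGGCGG was found in 3 of the 5 promoters, those of Col4a1, Col4a2 and Timp3, against 35.7% of all promoters. The 1 match of Col4a1 is the site it shares with Col4a2, so these promoters are not independent of each other. The fuller element GGGNGTGG was found in none of the 5, against 17.6% of all promoters. Col3a1 held none of the 3 motifs. Its promoter was also the poorest in G and C, at 37.7%, while Sparc had 55.3%, Timp3 67.0%, Col4a2 73.7% and Col4a1 74.0%. Among genes with an empty window, Timp3 had the most CACCC matches and Col3a1 had none. Col4a1, Col4a2 and Sparc, whose windows held peaks, had 1 match each. A relation between matches and peaks was not tested.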

How the data were processed

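Klf4 ChIP-seq of mesenteric tissue was analysed from 1 deposited peak list. The authors' score per peak is used as deposited, and the other values are positions in mm9. The caller was MACS, per the peak names in the deposited file, and the submitters' processing notes list Bowtie, SAMtools and mm9. The sources used here give no versions, calling threshold, control library, pooling or read depth.

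Coordinates are printed 1-based, which adds 1 to each deposited start. A peak belonged to a window when its midpoint lay inside it. Background shares came from tiles of equal width between the first and last peak of the 19 autosomes and chromosome X. With 1 list and no replicate, values were described and not tested. All 10 genes are named by rule. The members and lists were chosen with earlier results of these data known. Whether each window covers its gene was not checked, as the gene table is of GRCm38.p6; it gives all 10 genes on the same chromosome as the window. Other matrix genes and genotypes were not analysed here. Window counting, tiling and merging were tested on simulated peaks. Alternatives were score thresholds, overlap rules, wider windows, merging, tile placement and motif letters. Computation used Python 3.11.15 with pandas 2.3.3, numpy 2.4.6 and scipy 1.17.1, and figures matplotlib 3.10.9.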

Additional observations from a re-analysis of the deposited data

How the results depend on the processing

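The 4 windows with a peak, and the 5 genes without one, numbered the same with the upper 50% of scores, with any overlap of at least 1 base, with whole peaks inside, with windows widened by 20 kb and with peaks under 1 kb apart merged. The 6 peaks became 4 with the upper 50% of scores or merging, and 7 with wider windows. With the upper 25% of scores, 2 peaks in 2 windows remained (Lamc1 and Sparc), 8 genes had none and the rate was 2.15 peaks per Mb, by construction of the threshold. Merging raised the median width from 1036 to 1758 bp, also by construction. The number of member promoters with a match, 0 for GGGNGTGG, was 4 for CACCC and 3 for GGGCGG. Shares of tiles moved beyond the counting interval of the genome-wide share in 8 of 9 cases when taken from the gene's own chromosome. They did so in 0 of 9 when tiles were shifted by 50% of a width. That interval leaves out the counting error of the smaller own-chromosome sets, such as the 1565 tiles for Timp3 (15.4% against 16.2%). The moves were larger on chromosome 11, to 21.9% from 13.0% for Sparc (1974 tiles) and to 19.0% from 11.2% for Col1a1 (2369 tiles). Own-chromosome shares were lower than the genome-wide ones for Fn1, Lamc1, Col3a1 and Timp3. No paired analysis was possible because the single peak list carries no genotype and each genotype had 1 library. Read depth is not given, so an empty window does not show absent binding.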

Other observations

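The 1 Mb around the windows of Eln, Col4a1 and Col4a2, and Col1a1 held 9, 7 and 9 peaks outside the windows. Of these peaks, 7 scored above the highest score inside any window, 183.02, and 81.7% of the whole list scored below it. Around Eln there were 3, with scores of 384.24 (rank 111 of the list), 350.42 (rank 156) and 192.92 (rank 1167), all below the window, and the remaining 6 peaks there scored 60.51 to 141.65. Around Col4a1 and Col4a2 there were 2, with scores of 270.24 (rank 391) and 220.19 (rank 796), both above the window. Around Col1a1 there were 2, with scores of 285.88 (rank 322), above the window, and 187.52 (rank 1258), below it. The 7 peaks were chosen after their values were seen. In the 1 Mb around the other windows, peaks outside scored at most 166.76.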
